A study of Mus musculus with 1483 samples.

Results

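Excitatory and inhibitory neurons labelled by 1 enhancer virus, eHGT_058h, were compared within the same 3 mice. The cells were selected on measured levels of 3 genes. Those with the genotype label eHGT_058h were called glutamatergic (excitatory) at 10 or more counts per 1000000 reads (CPM) of Slc17a7, which loads glutamate into synaptic vesicles, with Gad1 and Gad2 below 10 CPM. They were called GABAergic (inhibitory) at 10 or more CPM of Gad1 or Gad2, the enzymes that make GABA, with Slc17a7 below 10 CPM. Of the 1483 cells of the series, 120 carried the label, and 118 of these fell into a class, 92 glutamatergic and 26 GABAergic. The glutamatergic cells numbered 26, 29 and 37 in MouseID-458159, MouseID-463481 and MouseID-497551, and the GABAergic cells 13, 6 and 7. The other 2 cells, both of MouseID-497551, passed for both classes and were left out.

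The series holds single cells of mouse primary visual cortex (VISp) from 33 mice under 11 enhancer labels. Each mouse carried an adeno-associated virus in which an enhancer drives the yellow fluorescent protein SYFP2. Cells expressing SYFP2 were sorted into single tubes and sequenced from polyadenylated RNA with the SMARTer v4 chemistry. The stated number was up to 48 cells per brain, although up to 49 GABAergic cells were counted in a mouse of other enhancers. All groups used here, eHGT_058h and the other enhancers, share the strain C57Bl/6J, the tissue and the sort, and every mouse carries an enhancer label. The sources used here give neither the age of the mice nor any stimulus before dissection. For comparison, glutamatergic cells of other enhancers came from 8 mice of 4 enhancers with at least 3 such cells, 181 cells in all, and GABAergic cells of other enhancers from 27 mice of 9 enhancers, 1097 cells in all.

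Immediate early genes are transcribed within minutes of strong synaptic input or other stimulation and need no new protein synthesis. Calcium entry acts on them through the transcription factors CREB and SRF, and many of them encode transcription factors themselves, such as the Egr, Fos, Jun and Nr4a families, while Arc encodes a protein of the excitatory synapse that takes part in the removal of AMPA receptors. In cortex they are used as a record of recent activity. Excitatory cells keep their synapses largely on spines, whereas most inhibitory cells have few spines and different calcium signalling proteins.

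Marker genes that the class rule did not use went with the class names. All 11 tested genes of the glutamatergic identity list were higher in glutamatergic cells and all 12 tested genes of the GABAergic identity list were lower. This is a description of the rule, since these genes mark the same classes. Neurod6, a transcription factor of cortical projection neurons, averaged 272 ± 33.3 CPM in glutamatergic cells and 0.0958 ± 0.166 CPM in GABAergic cells (SD, n = 3 mice). Slc32a1, which loads GABA into synaptic vesicles, was listed at 0 in every glutamatergic profile and averaged 44.5 ± 4.83 CPM in GABAergic cells (SD, n = 3 mice). The classes stood far apart at the threshold, which was 10 CPM. The lowest Slc17a7 in a glutamatergic cell was 306 CPM, and Slc17a7 was 0 in all GABAergic cells. The highest Gad1 or Gad2 in a glutamatergic cell was 4.2 CPM, and the lowest value of the higher of the 2 genes in a GABAergic cell was 791 CPM. Of the 2 cells outside both classes, 1 had 28.3 CPM of Slc17a7 with 1952 CPM of Gad1, and the other 943 CPM of Slc17a7 with 11.4 CPM of Gad1.

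Each class held several kinds of neuron. Rorb, a transcription factor of layer 4 and other intratelencephalic cells, reached 10 CPM together with Fezf2, a transcription factor of deep-layer projection neurons, in 38 glutamatergic cells. Rorb without Fezf2 was found in 27, neither gene in 26, and Fezf2 alone in 1. Among GABAergic cells, sorted by the highest of Pvalb, Sst, Vip and Lamp5, 11 were highest in Lamp5, 9 in Sst and 6 in Pvalb. The mice differed in this mix: all 6 Pvalb cells came from MouseID-458159, which gave 1 of the 9 Sst cells, while MouseID-463481 and MouseID-497551 gave 4 Sst cells each. Lhx6, a transcription factor of the medial ganglionic eminence lineage, was at 10 CPM or more in all 9 Sst and all 6 Pvalb cells and 0 in the Lamp5 cells, which instead had Adarb2 in all 11.

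Depth was similar in both classes, and both classes of a mouse share its library name prefixes, so that the prefix cannot separate them. The median glutamatergic cell held 607049 reads and 10310 genes, and the median GABAergic cell 680818 reads and 9850.5 genes, over a range of 92851 to 792374 reads in all 118 cells. In the median glutamatergic cell 1 read was 1.65 CPM, and in the median GABAergic cell 1.47 CPM. Markers of other brain cells were low except for single genes that neurons can also express. The 6 astrocyte markers summed to 411 to 651 CPM per mouse in glutamatergic cells and 57.3 to 240 CPM in GABAergic cells, most of it Slc1a2 in the glutamatergic cells, and Aqp4, Gfap and Gja1 were at 0 in every GABAergic cell. Another of the 6, Aldoc, was higher in GABAergic cells. In MouseID-458159, MouseID-463481 and MouseID-497551 it was 210, 42.5 and 107 CPM there, against 20.7, 36.1 and 27.9 CPM in glutamatergic cells. The 6 oligodendrocyte markers summed to 108 to 123 CPM in glutamatergic cells and 13.3 to 98.6 CPM in GABAergic cells, mostly Mbp, with Sox10 at 0 in both. The 6 microglial markers reached at most 2.65 CPM in glutamatergic cells and 14.9 CPM in GABAergic cells. The 6 endothelial and vascular markers reached at most 3.20 CPM in glutamatergic cells and 0.996 CPM in GABAergic cells. Whether RNA of other cells had a part in the results was not tested.

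Most immediate early genes were far higher in the excitatory than in the inhibitory cells of the same mice. For each mouse and class the mean CPM over cells was taken, and log2(mean CPM + 1) was compared within mice by limma with the mouse as a block. A gene was called at a Benjamini-Hochberg adjusted p under 0.05 with an absolute log2 difference of at least 1. Of the 20 immediate early genes listed, 19 were expressed enough to be tested, and 13 were higher in glutamatergic cells and 0 lower. Over all 14713 genes tested, 12.9% were higher and 5.4% lower. The median log2 difference of the 19 genes was 2.83, against 0.14 for all genes. In 12 of the 19 the lowest glutamatergic mouse lay above the highest GABAergic mouse, a pattern seen in 25.1% of all genes.

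Arc, the gene of a synaptic protein, was among the genes furthest apart. Mean Arc was 831, 384 and 787 CPM in the glutamatergic cells of MouseID-458159, MouseID-463481 and MouseID-497551, against 13, 8.98 and 33.6 CPM in their GABAergic cells. The groups did not overlap, as in 25.1% of all genes in this direction, and every glutamatergic value was more than 10 times the highest GABAergic one. The log2 difference was 5.22 (SE 0.27), with a limma adjusted p of 7.71e-05. The Arc gene lies on chromosome 15 at 74669081 to 74672570 (GRCm38.p6), and the values give 1 level per gene.

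The Egr family of zinc finger transcription factors was also higher in excitatory cells. Egr1 was 1723, 1197 and 1808 CPM in glutamatergic cells, against 120, 100.6 and 852 CPM in GABAergic cells. The groups did not overlap, as in 25.1% of all genes in this direction, but MouseID-497551 differed less than the others, with the highest GABAergic mean. The log2 difference of Egr1 was 2.83 (SE 0.47, limma adjusted p 0.00625), and by mouse it was 3.84, 3.56 and 1.08. Egr3 had the highest log2 difference of the list, at 6.50 (SE 0.62, adjusted p 0.000641), with 202, 183 and 115 CPM in glutamatergic cells and 0.210, 0 and 3.76 CPM in GABAergic cells. Egr4 averaged 226 ± 99.5 CPM in glutamatergic cells and 20.6 ± 16.8 CPM in GABAergic cells (SD, n = 3 mice). Egr2 averaged 63.1 ± 29 CPM in glutamatergic cells and 10.4 ± 10.3 CPM in GABAergic cells.

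**Figure D1:**
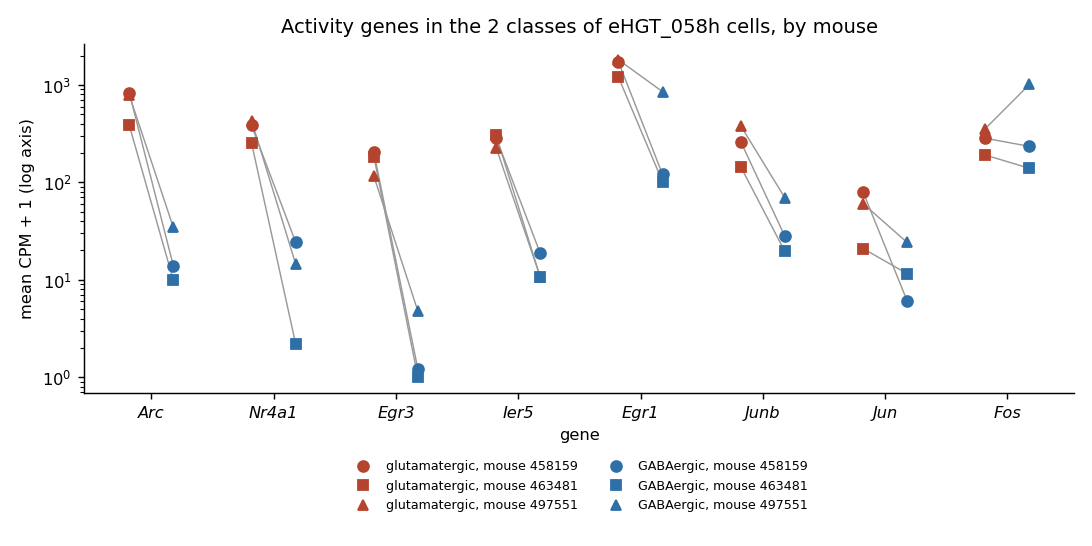
Mean CPM + 1 of 8 immediate early genes (log axis) in the glutamatergic cells (red, left of each pair) and GABAergic cells (blue, right) of 3 eHGT_058h mice, with a line joining the classes of a mouse and a symbol for each mouse. For Arc, Nr4a1, Egr3 and Ier5 all glutamatergic points lie far above all GABAergic points, while for Fos the lines run flat in 2 mice and upward in MouseID-497551, whose GABAergic mean was 1012 CPM.

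Genes of other families followed. Nr4a1, an orphan nuclear receptor, was 383, 252 and 427 CPM in glutamatergic cells, against 23.4, 1.22 and 13.6 CPM in GABAergic cells (log2 difference 5.23, SE 0.49, adjusted p 0.000605). Ier5, an immediate early gene linked to the heat shock factor pathway, was 285, 302 and 226 CPM in glutamatergic cells, against 17.7, 9.66 and 9.77 CPM in GABAergic cells (log2 difference 4.39, SE 0.25, adjusted p 0.000107). The ranges of both genes were separate, as in 25.1% of all genes in this direction. Junb, a partner of Fos proteins in the AP-1 factor, averaged 261 ± 118 CPM in glutamatergic cells and 38 ± 26.8 CPM in GABAergic cells. Dusp1, a phosphatase that switches off MAP kinases, was nearer between the classes, with 285 ± 96.2 CPM in glutamatergic cells and 122 ± 60.1 CPM in GABAergic cells (log2 difference 1.32, SE 0.30, adjusted p 0.0204). Btg2, Fosb, Jun and Gadd45b were the other called genes, with log2 differences of 3.25, 2.88, 1.96 and 2.80. The calls of Dusp1 and Jun were lost without MouseID-458159 and without MouseID-497551, and that of Fosb without MouseID-458159.

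Fos, the immediate early gene most used as an activity marker, did not follow Arc. Fos was 283, 190 and 356 CPM in glutamatergic cells, against 233, 139 and 1012 CPM in GABAergic cells. The groups overlapped, and the log2 difference was -0.26 (SE 0.35, adjusted p 0.641), with 2 mice higher and 1 lower in glutamatergic cells. The GABAergic mean of MouseID-497551 rested on 1 Sst cell with 6061 CPM of Fos and 3359 CPM of Egr1: without that cell it was 170 CPM for Fos and 434 CPM for Egr1. Leaving the cell out, an alternative added after the data were seen, moved the log2 difference of Fos to 0.59, with an adjusted p of 0.0560, and 14 of the 19 listed genes were called higher. The 5 further genes that missed the threshold were Fosl2, Nr4a2, Nr4a3, Npas4 and Ier2, with log2 differences of 1.28, 2.41, 0.51, 2.03 and 0.71 and adjusted p of 0.165, 0.140, 0.396, 0.164 and 0.137. Klf4 was too low to be tested.

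The count of 13 genes depended on the fit, and it was 8 without limma's trend and robust options, which ended the calls of Egr1, Egr2, Fosb, Jun and Dusp1. It was 10 without MouseID-458159, 13 without MouseID-463481, where Egr1 missed the threshold, and 12 without MouseID-497551. Without the mouse block it was 11, with Egr2 and Jun lost. Arc, Egr3, Egr4, Nr4a1, Ier5, Junb and Gadd45b were called in all 16 alternative settings. An exact test over the mice alone could not call any gene, since 3 pairs allow 8 sign flips and a smallest 2-sided p of 0.25, which was the value for both Arc and Egr1.

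**Figure D2:**
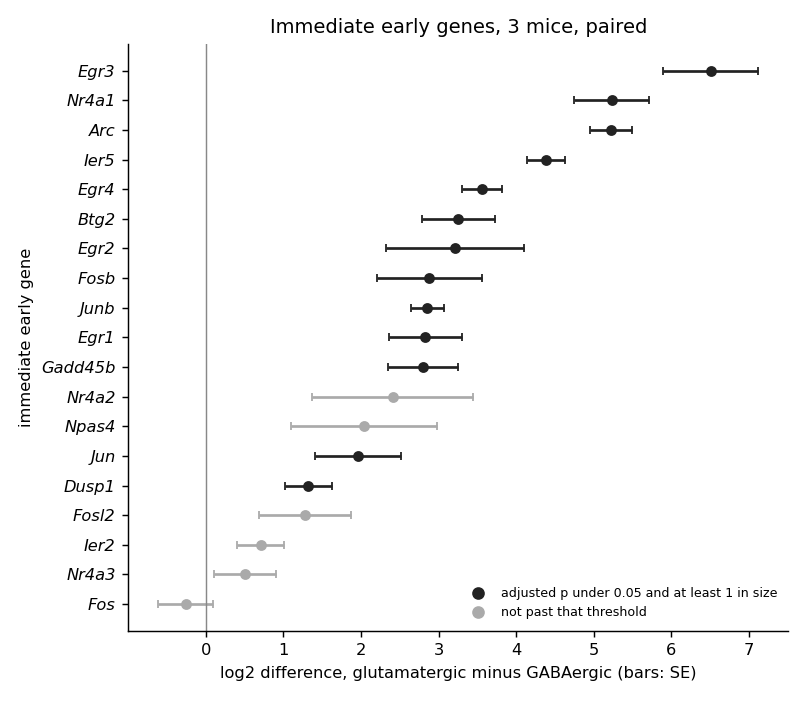
Log2 differences of the 19 tested immediate early genes, glutamatergic minus GABAergic cells of 3 eHGT_058h mice, with bars of 1 SE. Black points passed the threshold and grey points did not, and Fos alone lies below 0, at -0.26.

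Promoters of the listed genes were searched for motifs of the factors that read out calcium and cAMP signals. Sequences are from RefSeq on GRCm38.p6, from 250 bases before to 50 bases after the annotated start. Promoters were searched for 16 of the 20 genes, without Arc, Egr1, Egr3 and Ier2. The chromosome that carries Egr1 was left out of the promoter set, so the promoter of Egr1 was not examined for any motif. The shares given for all promoters lack that chromosome too. The promoters of Nr4a1 and Egr4, which were called higher at all settings, of Dusp1, which holds a full CREB site, and of Fos, whose difference did not pass, are printed as examples. Capitals mark the cAMP response element (CRE, TGACGTCA), its 5-base core TGACG, which lies within every full CRE, and the TATA box TATAAA, each on either strand, so that CGTCA is the core read on the other strand.
Nr4a1, chr15:101266596-101266895, plus strand: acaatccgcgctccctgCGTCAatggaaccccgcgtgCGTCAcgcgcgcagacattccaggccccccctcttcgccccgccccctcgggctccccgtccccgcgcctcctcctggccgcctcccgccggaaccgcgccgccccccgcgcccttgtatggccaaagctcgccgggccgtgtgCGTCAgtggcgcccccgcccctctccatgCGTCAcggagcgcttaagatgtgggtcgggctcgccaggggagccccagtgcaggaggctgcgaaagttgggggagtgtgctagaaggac
Egr4, chr6:85513540-85513839, minus strand: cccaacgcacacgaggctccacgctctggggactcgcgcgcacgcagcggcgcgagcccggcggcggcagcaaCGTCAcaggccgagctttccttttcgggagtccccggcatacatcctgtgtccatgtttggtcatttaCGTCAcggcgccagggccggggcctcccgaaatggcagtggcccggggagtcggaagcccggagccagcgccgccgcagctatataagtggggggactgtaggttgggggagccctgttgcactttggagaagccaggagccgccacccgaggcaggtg
Dusp1, chr17:26508423-26508722, minus strand: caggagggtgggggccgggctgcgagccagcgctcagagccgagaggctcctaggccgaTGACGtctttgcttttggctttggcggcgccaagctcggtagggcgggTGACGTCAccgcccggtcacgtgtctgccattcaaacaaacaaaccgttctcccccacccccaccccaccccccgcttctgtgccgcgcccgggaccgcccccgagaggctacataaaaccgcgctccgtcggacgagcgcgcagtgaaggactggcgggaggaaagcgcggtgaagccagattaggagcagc
Fos, chr12:85473640-85473939, plus strand: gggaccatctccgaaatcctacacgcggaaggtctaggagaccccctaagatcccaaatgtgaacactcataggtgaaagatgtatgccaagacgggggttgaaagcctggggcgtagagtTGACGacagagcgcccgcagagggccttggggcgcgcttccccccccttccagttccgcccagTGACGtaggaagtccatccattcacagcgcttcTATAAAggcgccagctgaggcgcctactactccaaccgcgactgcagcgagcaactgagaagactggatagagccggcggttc
Nr4a1 carries 4 cores, Egr4 carries 2, Dusp1 carries 3 with a full CRE, and Fos carries 2 with a TATA box. The core was present in 11 of the 16 immediate early promoters and in 21% of all 27025 promoters of the set. The full CRE was present in 2 of 16, Btg2 and Dusp1, and 1.88% of all. The TATA box was present in 4 of 16 and 14.2% of all, the binding site of Egr proteins, GCGNGGGCG, in 7 of 16 and 5.55% of all, and the CArG box of SRF in 0 of 16 and 1.57% of all. The first listed start of a gene was counted, and of the 5 start windows listed for Egr2 the other 4 hold a CArG box and 3 of them the core. Of the 10 called genes among the 16, 6 held the core, and of the 5 that did not pass, 4 did (Nr4a2, Nr4a3, Fos and Npas4). A match is a description of letters in this window and was set against no measurement of binding. Whether any of these motifs has a part in the differences between the classes was not tested.

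Cell by cell, excitatory cells had many of these genes at high level together and inhibitory cells few. At 100 CPM or more, Arc was present in 83 of 92 glutamatergic cells and 1 of 26 GABAergic cells. Egr1 reached that level in 90 of 92 glutamatergic and 15 of 26 GABAergic cells, and Fos in 70 of 92 and 13 of 26. Nr4a1 was at 100 CPM or more in 74 of 92 glutamatergic cells and 1 of 26 GABAergic cells, and Junb in 68 of 92 and 2 of 26. A median of 9 of the 20 genes was at 100 CPM or more in a glutamatergic cell, and 82 of 92 cells had at least 5. In a GABAergic cell the median was 2, and 1 of 26 cells had at least 5. Cells of a mouse are not independent replicates, so these counts are given with no test.

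The inhibitory cells differed among themselves by kind. Egr1 was at 100 CPM or more in 9 of 9 Sst cells and in 5 of 6 Pvalb cells, but in 1 of 11 Lamp5 cells. Its median per cell was 418 CPM in Sst, 147 CPM in Pvalb and 0 CPM in Lamp5 cells. Arc had a median of 40.6 CPM in Sst cells, with a highest cell of 142 CPM, and of 0 CPM in both Pvalb and Lamp5 cells. Fos was spread over all kinds, with medians of 56.1 CPM in Sst, 276 CPM in Pvalb and 78.0 CPM in Lamp5 cells. Since all Pvalb cells are of MouseID-458159 and 8 of the 9 Sst cells of the other mice, Pvalb and Sst cannot be told apart from the mice they came from. The Lamp5 cells came from all 3 mice.

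Among excitatory cells, those with Rorb had the higher Arc and Egr1. The median cell had 672 CPM of Arc with both Rorb and Fezf2, 653 CPM with Rorb alone, and 241 CPM with neither. For Egr1 these medians were 1474, 1836 and 555 CPM. Of the 20 genes, medians of 9, 9 and 6 were at 100 CPM or more, and all 38 cells with both genes and all 27 with Rorb alone had at least 5, against 16 of 26 with neither. The cells with neither gene ranged most widely, from 1 to 15 genes. In every mouse the mean of Arc was lowest in the cells with neither gene, at 591, 158 and 450 CPM. These Arc means still lay above the mean of all GABAergic cells of the same mouse. Junb went the other way by its mean, which was 350, 165 and 558 CPM in the cells with neither gene, against 195, 150 and 302 CPM in those with both. Its median over cells was 125 CPM with neither gene and 183 CPM with both.

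**Figure D3:**
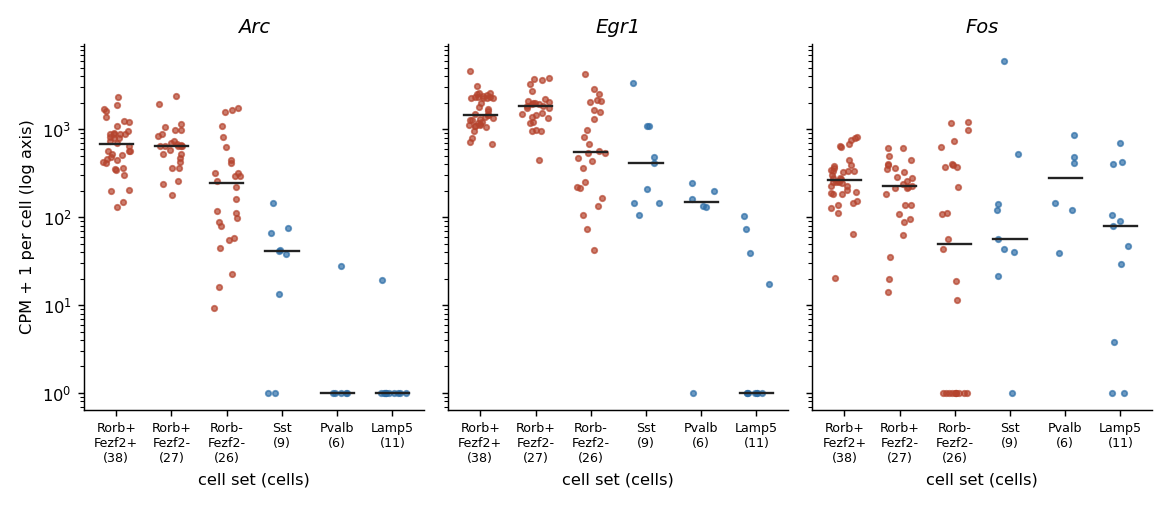
CPM + 1 per cell (log axis) of Arc, Egr1 and Fos in glutamatergic cells (red) sorted by Rorb and Fezf2 at 10 CPM and in GABAergic cells (blue) sorted by their highest subclass gene, with the number of cells in brackets and the median as a line. The single cell with Fezf2 alone is not shown. Arc falls off between the classes and Egr1 within the GABAergic class, with Lamp5 cells at a median of 0 CPM, whereas the Fos points of all kinds overlap.

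Slower activity-regulated genes and feedback inhibitors were also higher in excitatory cells. Of 13 tested late activity genes, 7 were higher and 0 lower, against 12.9% and 5.4% of all genes. Their median log2 difference was 2.24, against 0.14 for all genes. Homer1, a scaffold of metabotropic glutamate receptors with an activity-induced short form, was 478, 582 and 506 CPM in glutamatergic cells, against 36.5, 29.9 and 67.0 CPM in GABAergic cells. Bdnf, the neurotrophin made by excitatory cells, was 254, 176 and 114 CPM in glutamatergic cells, against 7.59, 28.3 and 2.87 CPM in GABAergic cells. Neither gene overlapped between the classes, a pattern in this direction seen in 25.1% of all genes. The log2 differences were 3.60 (SE 0.25, limma adjusted p 0.000207) and 4.13 (SE 0.47, limma adjusted p 0.00124). Nptx2, a secreted pentraxin that gathers AMPA receptors on interneurons, Rasgrp1, Pcsk1 and Per1 were the others with GABAergic values above 0, at 4.64, 3.04, 2.71 and 2.24. Nrn1, a surface protein of excitatory neurons, averaged 652 ± 161 CPM in glutamatergic cells and was listed at 0 in all GABAergic profiles. Vgf and Scg2, which encode secretory granule proteins, had log2 differences of -0.02 and -0.18 and did not pass.

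Of 10 feedback genes of the MAP kinase and cAMP pathways, 6 were higher and 0 lower, against 12.9% and 5.4% of all genes. Their median was 2.27. Dusp14 averaged 532 ± 141 CPM in glutamatergic cells and 60.4 ± 18.4 CPM in GABAergic cells (SD, n = 3 mice). Dusp6, a phosphatase of ERK, averaged 231 ± 47.5 CPM in glutamatergic cells and 33.6 ± 19.7 CPM in GABAergic cells. Pde4b, which breaks down cAMP, averaged 189 ± 19.4 CPM in glutamatergic cells and 14 ± 10.6 CPM in GABAergic cells. Spry4, an inhibitor of receptor tyrosine kinase signalling, was 10.2 ± 0.801 CPM in glutamatergic cells and 21.4 ± 8.63 CPM in GABAergic cells, at a log2 difference of -0.94 that did not pass (adjusted p 0.156). Sik1 was called at 11.8 CPM in glutamatergic cells against 3.34 CPM in GABAergic cells, and the call was lost without any 1 of the mice.

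Heat shock and stress genes differed less between the classes than 1 on the log2 scale in 7 of 9 tested. Of the 9, 0 were called higher and 2 lower in glutamatergic cells, against 12.9% and 5.4% of all genes, and the median log2 difference was -0.42. Ddit3, a factor of the endoplasmic reticulum stress response, was 31.3, 34.7 and 37.6 CPM in glutamatergic cells, against 89.0, 94.8 and 53.2 CPM in GABAergic cells, with a log2 difference of -1.13 (SE 0.27, adjusted p 0.0255). The groups did not overlap, as in 16.8% of all genes in this direction, but the call was lost without MouseID-458159 and without MouseID-463481. Hspa1b was called lower at -2.60, with 2.32 ± 1.16 CPM in glutamatergic cells and 20.7 ± 12.5 CPM in GABAergic cells, a call lost without MouseID-497551. Its near copy Hspa1a had -0.97 and did not pass, and how reads were shared between the copies is not known. Hsph1, a chaperone of the heat shock response, lay the other way, at 750, 611 and 653 CPM in glutamatergic cells, against 435, 349 and 346 CPM in GABAergic cells. Its groups did not overlap, as in 25.1% of all genes in this direction. Its log2 difference of 0.83 (limma adjusted p 0.00387) was under the size threshold.

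Genes of spines and of calcium signalling were mostly higher in excitatory cells. Of 10 tested, 9 were higher and 0 lower, against 12.9% and 5.4% of all genes, with a median of 2.79. The call of Dlg4, a scaffold of the excitatory synapse, was lost without any 1 of the mice. Nrgn, which binds calmodulin in spines, was 1135, 1174 and 962 CPM in glutamatergic cells, against 23.7, 40.1 and 74.3 CPM in GABAergic cells, with a log2 difference of 4.68 (SE 0.32, adjusted p 0.000185). Itpka, which phosphorylates inositol trisphosphate and binds spine actin, was 292, 281 and 320 CPM in glutamatergic cells, against 8.57, 8.71 and 10.9 CPM in GABAergic cells (log2 difference 4.85, SE 0.21, adjusted p 5.42e-05). Neither gene overlapped between the classes, a pattern in this direction seen in 25.1% of all genes. The GABAergic values of Nrgn spread more widely than those of Itpka. Camk2a, the alpha subunit of the calcium and calmodulin dependent kinase II, and Camk4 had log2 differences of 3.36 and 3.17, while Camk2b missed the size threshold at 0.88.

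Glutamate receptor subunits split in both directions. Of 9 tested, 4 were higher and 3 lower, against 12.9% and 5.4% of all genes. Gria2, whose edited subunit makes AMPA receptors impermeable to calcium, averaged 908 ± 46.2 CPM in glutamatergic cells and 402 ± 26.1 CPM in GABAergic cells (log2 difference 1.17, adjusted p 0.00104). Gria1 and Gria3 were lower in glutamatergic cells, at -1.06 and -1.01, but the call of Gria1 was lost without MouseID-497551 and that of Gria3 without MouseID-463481. Grin2a and Grin2d were the other higher genes, and the call of Grin2a was lost without MouseID-463481 and without MouseID-497551, and that of Grin2d without MouseID-458159 and without MouseID-497551. Of the NMDA receptor subunits, Grin2b averaged 746 ± 140 CPM in glutamatergic cells and 232 ± 31.3 CPM in GABAergic cells, and Grin3a 5.09 ± 5.25 CPM in glutamatergic cells and 190 ± 105 CPM in GABAergic cells. Their log2 differences were 1.68 (adjusted p 0.00105) and -5.21 (adjusted p 0.00440). The obligatory subunit Grin1 did not pass, at 0.15 (adjusted p 0.654).

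Of 12 subunits of the GABA-A receptor, 4 were higher and 2 lower, against the same 12.9% and 5.4%. Gabra2 was higher in glutamatergic cells, at 1.65, and Gabrg3 and the extrasynaptic subunit Gabrd lower, at -2.42 and -1.15, the call of Gabrd being lost without MouseID-497551. Gabrg1 averaged 3.86 CPM in glutamatergic cells and was listed at 0 in GABAergic cells, and its call was lost without MouseID-458159 and without MouseID-497551. Of 12 channel genes of fast-spiking cells, 1 was higher and 5 lower. Kcns3 and Kcnc1, potassium channel genes of fast-spiking interneurons, were lowest, at -4.67 and -2.73, with 3.91 ± 1.85 and 39.7 ± 4.65 CPM in glutamatergic cells, against 119 ± 17.6 and 295 ± 159 CPM in GABAergic cells. Scn8a, the sodium channel Nav1.6, was higher at 1.10, a call lost without MouseID-463481 and without MouseID-497551.

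**Figure D4:**
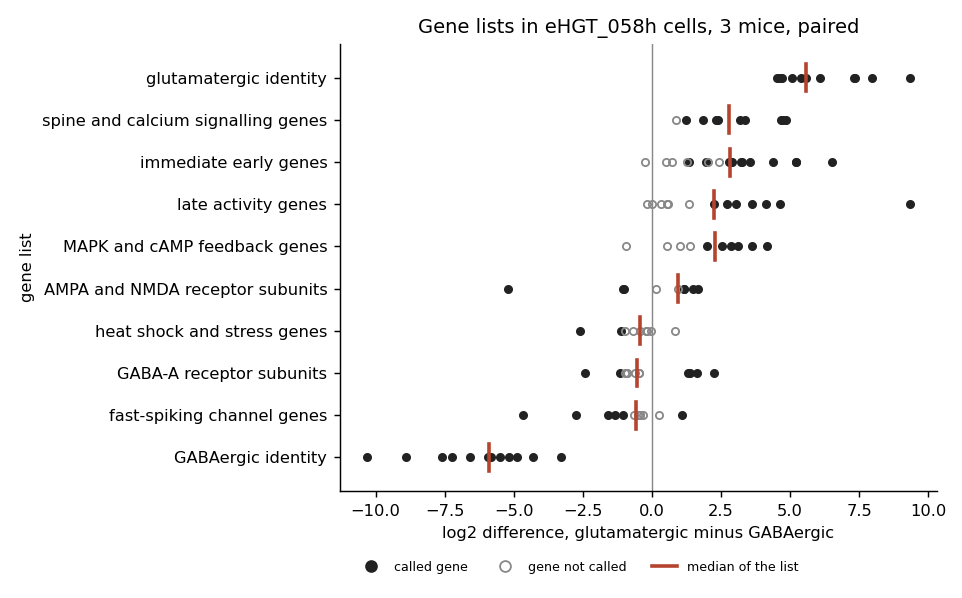
Log2 differences, glutamatergic minus GABAergic cells of 3 eHGT_058h mice, of every tested gene in 10 lists, with called genes filled, other genes open and the median of each list as a red line. The spine, immediate early, late activity and feedback lists lie mostly above 0 with medians of 2.79, 2.83, 2.24 and 2.27, the receptor and channel lists spread to both sides, and the size of genes listed at 0 in a class depends on the added 1 CPM.

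Over all genes, 1902 were higher and 795 lower in glutamatergic cells, 18.3% of those tested. With the mean over cells of log2 CPM in place of the log2 of the mean, 1801 were higher and 1256 lower, so the split between directions depends on how cells are averaged. Among the 10 largest rises with a mean of at least 20 CPM were Nrn1, Fam19a1, Dkkl1, Rorb, Neurod6, Ptprk, Arpp21, Klf10 and Adcyap1. Klf10, a transcription factor induced by TGF-beta, averaged 153 ± 3.97 CPM and Adcyap1, the neuropeptide PACAP, 144 ± 60.7 CPM in glutamatergic cells, and both were listed at 0 in GABAergic cells. Arpp21, a phosphoprotein of projection neurons, averaged 1280 ± 84.6 CPM in glutamatergic cells and 8.82 ± 6.89 CPM in GABAergic cells.

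Among the 10 largest falls were Npy, Sst, Nxph1, Crhbp, Pdyn, Pcp4l1, Kcnip1, Pvalb and Pnoc, of which Npy, Sst, Pdyn and Pnoc encode neuropeptide precursors. Npy was listed at 0 in all glutamatergic profiles and averaged 10138 ± 3098 CPM in GABAergic cells (SD, n = 3 mice), with medians of 22762 CPM in Lamp5 cells, 1551 CPM in Sst cells and 253 CPM in Pvalb cells. Crhbp, which binds corticotropin releasing hormone, averaged 0.0126 CPM in glutamatergic cells and 506 ± 276 CPM in GABAergic cells. Nxph1, a ligand of neurexins, averaged 0.461 ± 0.583 CPM in glutamatergic cells and 676 ± 112 CPM in GABAergic cells.

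Whether activity genes were high in both classes was asked against the same class under other enhancers. In glutamatergic cells, mean Arc was 384 to 831 CPM in the 3 eHGT_058h mice, against a lowest of 25.9, a median of 284 and a highest of 554 CPM in 8 other mice. All 3 mice lay above the other median and 2 above every other mouse. The log2 difference was 1.69, with a 2-sided exact permutation p of 0.0485 over 165 assignments of mice, and 0.0646 after Benjamini-Hochberg adjustment over the 4 tests of Arc and Egr1 in both classes. Egr1 was 1197 to 1808 CPM in eHGT_058h mice, against a lowest of 328, a median of 795 and a highest of 1211 CPM in the other mice. All 3 mice lay above the other median and 2 above every other mouse, at a log2 difference of 1.11 (exact permutation p 0.0242, adjusted 0.0646).

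In GABAergic cells, Arc was 8.98 to 33.6 CPM in the 3 eHGT_058h mice, against a lowest of 0, a median of 3.80 and a highest of 48.2 CPM in 27 other mice. The eHGT_058h mice lay above the other median but inside the range of the others, and the log2 difference of 1.54 had an exact permutation p of 0.0887 over 4060 assignments, which the adjustment left at 0.0887. Egr1 was 100.6 to 852 CPM in eHGT_058h mice, against a lowest of 0.651, a median of 71.9 and a highest of 344 CPM in the others. All 3 mice lay above the other median and 1, MouseID-497551, above every other mouse, at a log2 difference of 1.90 (exact permutation p 0.0384, adjusted 0.0646). None of the 4 comparisons passed 0.05 after adjustment, and all 4 differences were positive.

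Within the GABAergic class the differences had opposite signs in Sst and Lamp5 cells, a contrast that was not itself tested. Among Sst cells alone, an alternative added after the data were seen, with 3 eHGT_058h mice, 1 of them by a single cell, and 20 other mice, the log2 differences were 2.16 for Arc (exact permutation p 0.0802, adjusted 0.0802) and 1.98 for Egr1 (exact permutation p 0.0215, adjusted 0.0485). Among Lamp5 cells alone, with 3 eHGT_058h mice, 1 of them by 2 cells, and 7 other mice, they were -0.95 (exact permutation p 0.417) and -1.002 (p 0.450), both 0.450 after adjustment. Without MouseID-497551 the difference of Egr1 in GABAergic cells was 0.92, and without the cell highest in Fos it was 1.57.

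**Figure D5:**
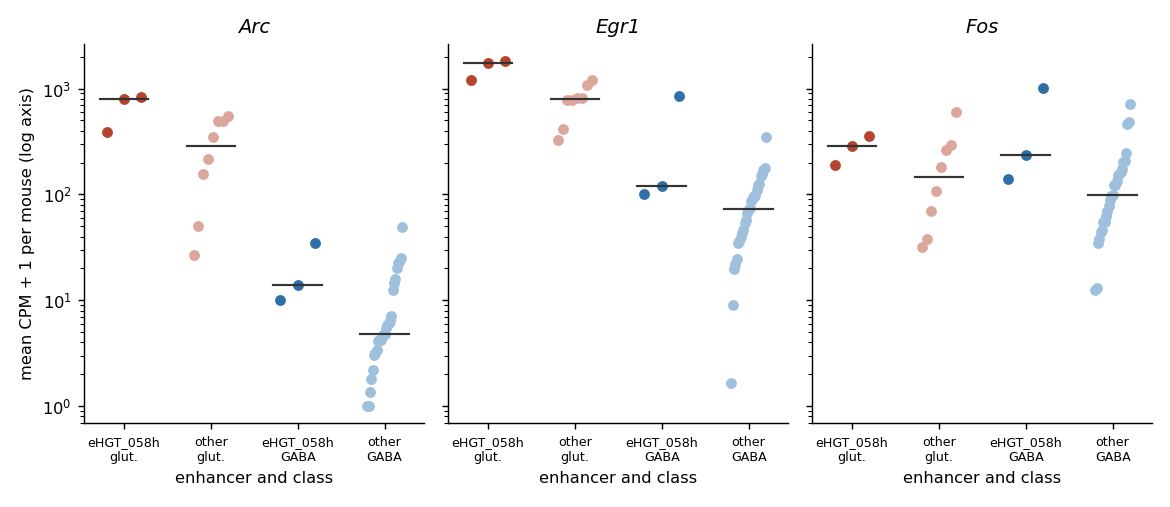
Mean CPM + 1 per mouse (log axis) of Arc, Egr1 and Fos, with each mouse as a point and the median as a line, for glutamatergic cells of eHGT_058h (3 mice) and of other enhancers (8 mice) and for GABAergic cells of eHGT_058h (3 mice) and of other enhancers (27 mice). Within each class the eHGT_058h medians lie above the others, and for Arc and Egr1 both glutamatergic groups lie above nearly all GABAergic mice.

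The glutamatergic values of other enhancers were themselves uneven. Over cells, 83 of 92 eHGT_058h, 34 of 39 eHGT_023h and 38 of 136 eHGT_078h glutamatergic cells had at least 100 CPM of Arc, with means of 672, 456 and 101.1 CPM. The means of Egr1 over the same cells were 1591, 787 and 618 CPM. Fos and Junb were highest under eHGT_023h instead. Their means in the same order were 283, 452 and 96.1 CPM for Fos and 271, 339 and 150 CPM for Junb. For Nr4a1 they were 360, 310 and 111 CPM. Library names group samples by a prefix, and 2 prefixes held cells of eHGT_058h and of other enhancers. Within the prefix shared by MouseID-458159, glutamatergic Arc was 831 CPM in the eHGT_058h mouse, against 133 and 60.1 CPM in 2 eHGT_078h mice. Within the prefix shared by MouseID-497551, it was 787 CPM in the eHGT_058h mouse, against 554 CPM in an eHGT_023h mouse and 13.8 CPM in an eHGT_078h mouse. The eHGT_058h mouse was highest in both prefixes, and the sources used here do not say what a prefix stands for.

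In a single limma fit of the 4 groups, with the mouse as a random block, no immediate early gene was called in either class. In glutamatergic cells 0 of 19 passed, against 0.6% of all 14656 genes (0.362% higher and 0.239% lower). All 19 log2 differences were positive, with a median of 0.84, against 0.11 for all genes. At an unadjusted p under 0.05 there were 0, and with limma's voom on recovered reads 1 was called. With at least 5 cells per mouse 17 of the 19 were positive. Among cells with Rorb but no Fezf2 14 were, with a median of 0.45. In GABAergic cells 0 of 19 passed, against 2.62% of all genes (0.321% higher and 2.3% lower). Of the 19, 14 were positive, with a median of 0.41, against -0.11 for all genes. At an unadjusted p under 0.05 there were 5 (Egr1, Egr2, Egr4, Fos and Nr4a3), and voom called 0. Without MouseID-458159, 1 gene of the list was called, and among Sst cells alone 1 was called higher and 1 lower. Without MouseID-497551, 10 of the 19 were positive. Among Lamp5 cells alone 8 were, with a median of -0.10. Fos was 276 ± 83.4 CPM in eHGT_058h glutamatergic cells and 198 ± 191 CPM in those of other enhancers, and 461 ± 479 CPM in eHGT_058h GABAergic cells and 152 ± 162 CPM in those of other enhancers.

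The difference between excitatory and inhibitory cells in these genes was not detectably different under eHGT_058h from that under other enhancers. The interaction of enhancer and class called 0 of 19 immediate early genes, against 2.81% of all genes (2.48% higher and 0.334% lower), with 0 at an unadjusted p under 0.05 and 0 by voom. It was 0.17 (SE 1.22, adjusted p 0.961) for Arc and -0.76 (SE 1.2, adjusted p 0.785) for Egr1 on the log2 scale. Errors of this size leave room for differences in either direction. Under other enhancers, Arc averaged 293 ± 210 CPM in glutamatergic cells (SD, n = 8 mice) and 8.53 ± 10.8 CPM in GABAergic cells (SD, n = 27 mice), and Ier5 193 ± 58.2 CPM in glutamatergic cells and 11.9 ± 3.61 CPM in GABAergic cells. Against other enhancers, 1 of 10 feedback genes was called higher in glutamatergic cells and 0 in GABAergic cells. Over all genes 0.362% and 0.321% were higher. The median log2 differences of the 10 were 0.62 and -0.14. Of 13 late activity genes 0 were called in either class, with medians of -0.02 and 0.04. The interaction called 0 of either list, with 5 of each at an unadjusted p under 0.05.

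Excitatory cells of eHGT_058h differed from those of other enhancers in 53 higher and 35 lower genes, among them markers of cortical layers. Over all 14656 genes tested, 0.362% were higher and 0.239% lower. Of 7 tested markers of layer 4 and layer 5 intratelencephalic cells, 2 were higher, Endou and Dkkl1. Of 5 tested markers of layer 5 extratelencephalic cells, 4 were lower, Fezf2, Bcl11b, Crym and Fam84b. Endou and Fezf2 kept their calls without each mouse in turn and with 1 profile per other enhancer, and the other 4 were lost with 1 profile per other enhancer. Endou was lost among mice sharing a library prefix and Fezf2 at a pseudocount of 0.1. Dkkl1 and Crym were also lost without any 1 of the mice, Fam84b without MouseID-463481 and without MouseID-497551, and Bcl11b without MouseID-497551. Endou averaged 64.5 ± 10.03 CPM in eHGT_058h glutamatergic cells and 9.66 ± 8.83 CPM in those of other enhancers, at a log2 difference of 3.35 (SE 0.54, adjusted p 0.000462). Fezf2, the master regulator of subcerebral projection neurons, averaged 29.3 ± 6.63 CPM in eHGT_058h cells and 125 ± 55.4 CPM in those of other enhancers (log2 difference -1.93, SE 0.32, adjusted p 0.000611). The eHGT_058h mice lay outside the range of the 8 other mice for both genes, and the share of all genes that do so was not counted.

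Other named genes of this comparison were higher in eHGT_058h excitatory cells, led by Hbegf, an EGF receptor ligand, at 40.4 ± 11.7 CPM against 6.02 ± 4.74 CPM in those of other enhancers (log2 difference 3.07, adjusted p 0.000886). Plekha7, Vipr1, Ralb, Nuak1, Wnt9a, N4bp1, Mesdc1 and Fjx1 followed at 1.34 to 2.12. The call of Hbegf held without each mouse in turn but was lost among mice sharing a library prefix. Those of Plekha7, Vipr1, Ralb, Nuak1, N4bp1 and Mesdc1 were lost without any 1 of the eHGT_058h mice, that of Fjx1 without MouseID-458159 and without MouseID-497551, and that of Wnt9a without MouseID-497551. Lower ones were Bcl11b, Pcdh8, Sparcl1, Iqgap2, Gng7, Crym, Gria3, Cyb5r1 and Rab30, at -3.41 to -1.19. Pcdh8, Iqgap2, Crym and Cyb5r1 lost their calls without any 1 of the mice, Gng7 without MouseID-458159 and without MouseID-463481, Sparcl1 without MouseID-463481 and without MouseID-497551, and Rab30 without MouseID-463481. Gria3, an AMPA receptor subunit, was 137 to 161 CPM in eHGT_058h mice, against 296 to 569 CPM in the other mice, and was called in all 16 alternative settings. With 1 profile for each other enhancer, 8 genes were higher and 8 lower, and among cells with Rorb but no Fezf2, where only 2 other mice had enough cells, 688 were higher and 299 lower. By voom on recovered reads 160 were higher and 24 lower, and among mice sharing a library prefix 21 were higher and 87 lower. The total of 88 genes was 37 without MouseID-458159, 29 without MouseID-463481 and 23 without MouseID-497551.

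Inhibitory cells of eHGT_058h differed from those of other enhancers in 47 higher and 337 lower genes. These counts moved with the cells behind a profile. With only the first 7 cells of each other mouse by label number, near the 6 to 13 of eHGT_058h, 3 were higher and 8 lower. The split between directions was not stable either, with 45 higher and 0 lower by voom and 337 higher and 56 lower among mice sharing a library prefix. The total of 384 was 622 without MouseID-458159, 200 without MouseID-463481 and 174 without MouseID-497551. Tnnt1, Lsp1, Cd34, Chst7, Mmp17, Gdf10, Wif1, Hspa1b, Tspan33 and Plk2 led the higher genes, and of these Tspan33 averaged 75.9 ± 22.5 CPM in eHGT_058h GABAergic cells and 22 ± 11.8 CPM in those of other enhancers (log2 difference 1.88, SE 0.40, adjusted p 0.00597). The call of Tspan33 was lost without MouseID-497551, and those of Tnnt1, Cd34, Mmp17, Gdf10 and Plk2 without any 1 of the eHGT_058h mice. Those of Lsp1, Chst7 and Wif1 were lost without MouseID-463481 and without MouseID-497551, and that of Hspa1b without MouseID-458159 and without MouseID-497551. Cck, Pthlh, Ankrd34b, Scn9a, Ankrd16, Cntnap5c, Ntrk3, Alcam, Dock4 and Clic4 led the lower genes. The calls of all 10 higher and all 10 lower genes named here were lost with 7 cells per other mouse, and those of the 10 lower ones by voom. Without MouseID-463481 the calls of Ankrd34b, Scn9a, Ntrk3, Alcam, Dock4 and Clic4 were lost, and without MouseID-497551 those of Cck, Ankrd34b, Scn9a, Cntnap5c and Dock4. Ankrd16 averaged 5.93 ± 7.31 CPM in eHGT_058h GABAergic cells and 20.3 ± 5.75 CPM in those of other enhancers (log2 difference -2.30, SE 0.36, adjusted p 0.000268). The mix of kinds moves with this comparison, since Lamp5 averaged 835 ± 131 CPM in eHGT_058h GABAergic cells and 275 ± 533 CPM in those of other enhancers, and Pvalb 490 ± 502 CPM in eHGT_058h and 1332 ± 965 CPM in the others. Its part in the result was not tested beyond the values for single kinds.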

How the data were processed

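Single cells were measured by full-length RNA sequencing. The deposited table holds CPM per gene and cell, computed by the authors; each cell sums to 1000000. STAR and the build mm10 are listed, per the submitters' processing notes, with no version. How reads were counted and cells filtered is not stated there. Each nonzero CPM came out as a whole number of reads, to 0.01 read, which gave 92851 to 792374 reads a cell in the 118 cells. The reads carry no molecular identifiers, so they are not independent molecules. No pair of the 120 eHGT_058h cells was identical, and no doublet caller was run.

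Profiles were means of CPM per mouse and class, with at least 3 cells in mice of other enhancers, as log2(CPM + 1). limma 3.58.1 (trend and robust, statmod 1.5.0, R 4.3.3) was fitted to genes averaging 1 CPM or more, without Slc17a7, Gad1 and Gad2, and p-values were adjusted over all genes tested. The paired fit used the mouse as a block, since both classes come from the same animal. The fit of 4 groups used duplicateCorrelation by mouse. Both fits were run on simulated data with no mouse effect and with changes only in genes of higher mean level. The simulated data therefore could not check the mouse block or changes at low level. edgeR and DESeq2 were planned for raw counts and not run, and voom on recovered reads took their place. Arc and Egr1 were compared over mice by 2-sided exact permutation tests (Python 3.11.15, numpy 2.4.6, pandas 2.3.3, scipy 1.17.1, matplotlib 3.10.9). Named genes are the 10 largest called differences in each direction that averaged 20 CPM or more in the higher group, with all mice in the same direction (or beyond the median of the other mice), without Gm, Rik, pseudogene, mitochondrial, ribosomal, Y-linked, Xist and Tsix names. Members of the gene lists are named in addition. Some genes are not reported here. The members and lists were chosen with earlier results of these data known. Alternatives were the pseudocount, the filter, the block, the cell threshold, single kinds of cell, library prefixes, numbers of cells and each mouse left out.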

Additional observations from a re-analysis of the deposited data

Results flagged for a closer look

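Among 20 immediate early genes, the glutamatergic cells of the 8 mice of other enhancers held 3 cases of a sample far from the rest, where chance gives about 1 in 20 independent groups. The 20 genes were measured in the same 8 mice and are not independent, so this rate cannot show an excess. MouseID-497548 of eHGT_023h was highest in Fos, at 603 CPM, and in Btg2, at 57.8 CPM. MouseID-497549 of eHGT_023h was highest in Klf4, at 2.0 CPM, a gene too low to be tested in the fits. The eHGT_058h groups have 3 mice and were not examined in this way.

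For 18 named genes the interaction of the 4-group limma fit passed. These genes had been named for a call in 1 class of the same fit, so the interaction is no separate support for them. The interaction is given here as eHGT_058h minus other enhancers in excitatory cells less the same in inhibitory cells, on the log2 scale. It was positive for Hbegf (3.62), Pthlh (3.39), Endou (3.36), Clic4 (3.34), Cntnap5c (2.70), Erbb4 (2.66), Plekha7 (2.52), Ankrd16 (2.21), Nuak1 (2.18), Wnt9a (1.59) and Dkkl1 (1.49). It was negative for Pcdh8 (-4.37), Bcl11b (-3.95), Hspa1b (-3.14), Gng7 (-2.58), Sparcl1 (-1.89), Fezf2 (-1.79) and Gria3 (-1.30). Endou, Fezf2 and Dkkl1 were listed at 0 in all eHGT_058h inhibitory profiles, and the 3.36 of Endou stood beside an excitatory difference of 3.35. Bcl11b averaged 0.642 CPM in eHGT_058h excitatory cells and 26.6 CPM in those of other enhancers, against 64.3 CPM in eHGT_058h inhibitory cells and 45 CPM in those of other enhancers. Of all 14656 genes, 412 passed this test, and the count was 15 by voom and 47 without MouseID-463481.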

How the results depend on the processing

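The paired comparison called 2697 genes, within 1.5 times under every alternative except without MouseID-497551 (1728; range 1728 to 2060 over mice left out). Without the replicate block it called 2872, and the 4-group fits called 94 (excitatory), 381 (inhibitory) and 326 (interaction). In it Fos ranged from -0.61 to 0.36 over mice left out, turning positive without MouseID-497551, and turned to 0.59 without the cell highest in Fos and 0.62 with log2 averaged over cells, where Id2 (1.67) and Lamp5 (0.63) also turned and the split was 1801 higher and 1256 lower, against 1902 and 795.

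The excitatory comparison with other enhancers (88) gave 56 at a pseudocount of 0.1, 351 without a filter, 202 with at least 5 cells, 27 for prefix letter G, 16 with 1 profile per enhancer, 184 by voom, 192 against eHGT_078h alone, 987 for Rorb without Fezf2 (Bcl11b 0.18, Cyb5r1 1.79 and Wnt9a -0.020 turned) and 23 to 37 over mice left out. The inhibitory comparison (384) gave 736 and 49 at pseudocounts of 0.1 and 10, 637 with at least 5 cells, 227 for letter G, 218 with 1 profile per enhancer, 45 by voom, 11 with 7 cells per mouse, 759 for Lamp5 cells (Clic4 0.097 and Pthlh 0.40 turned), 738 for Sst cells (Cd34 -0.094, Gdf10 -1.39, Plk2 -0.68, Sv2b -0.59 and Wif1 -0.83 turned) and 174 to 622 over mice left out. The interaction (412) gave 185 at a pseudocount of 10, 695 with at least 5 cells, 66 for letter G, 161 for shared prefixes, 162 with 1 profile per enhancer, 15 by voom and 47 to 609 over mice left out. Its split of 363 higher and 49 lower turned to 2 and 13 by voom and 15 and 146 for shared prefixes. The cause of these moves was not tested. In Lamp5 cells Arc (-0.95) and Egr1 (-1.002) turned, and in Sst cells Egr1 (1.98) passed.

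With 3 mice and 6 to 13 GABAergic cells a mouse, small differences were not detectable. edgeR, DESeq2 and size factors were not run.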

Other observations

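The 2 cells that passed for both classes, both of MouseID-497551, also carried activity genes. The cell with 1952 CPM of Gad1 and 5126 CPM of Sst had 3273 CPM of Egr1 and 24.1 CPM of Arc. The cell with 943 CPM of Slc17a7 had 2157 CPM of Egr1 and 422 CPM of Arc. With the classes drawn at 100 CPM, where both cells enter a class, 10 of 19 immediate early genes were higher in excitatory cells.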
